A study of Mus musculus with 12 samples.

Results

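Eph receptors are receptor tyrosine kinases of the cell surface, and ephrins are the ligands that neighbouring cells present to them. Both partners are bound to membranes, so the signal passes at cell contacts, and it can run into the receptor-bearing cell (forward) or into the ephrin-bearing cell (reverse). EphA receptors mostly bind ephrin-A ligands, which are held by a lipid anchor, and EphB receptors mostly bind the transmembrane ephrin-B ligands, while EphA4 binds ligands of both classes. In the heart and its vessels the family is best known for ephrin-B2 and EphB4, which mark arterial and venous endothelium.

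The genes described here are 10 members of the family, namely the receptor genes Epha2, Epha4, Epha7, Ephb1, Ephb3 and Ephb4 and the ephrin genes Efna1, Efna5, Efnb1 and Efnb2, out of 19505 genes with a named probe set. They were chosen by gene symbol, with earlier results of these arrays known: Epha4 had been picked for its lower signal in diabetic hearts, and the values behind the choice of the other 9 are not recorded. The rule kept, per gene, the probe set of highest mean over all arrays, but each of the 10 had 1 probe set, so this step chose nothing. A further 11 genes of the family with a named probe set are described beside them, so that 21 are covered, and Ephb2 is not analysed here.

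Affymetrix arrays measured gene expression in 12 samples of mouse myocardium, 4 per group in 3 groups. The sample titles do not say whether each sample came from a single mouse. AngIV mice were made diabetic with streptozotocin, a toxin of the insulin-producing beta cells, and then infused with angiotensin IV, a short peptide derived from angiotensin II, at 2.88 mg/kg/day from the end of week 8 to the end of week 24. DM mice received streptozotocin without angiotensin IV, and NC mice, the negative controls, received vehicle injections. Injections ran over 5 days in all groups. Mice of both diabetic groups were kept if their fasting glucose had reached 16.7 mM, and the labels give 6 months for the tissue of every group. Strain, sex and any vehicle infusion in the DM and NC groups are not given in the sources used here. The groups were taken from the sample titles, and the disease state tag, which contradicts the titles for NC and for AngIV, was not used. No label ties replicates to separate litters or days, and p-values measure the spread between these 12 samples.

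Values are log2 signals, so a difference of 1 is a doubling of signal. Background was set at the 95th percentile of the signals of negative control probe sets, which lay between 5.39 and 5.60 on the 12 arrays. All 6 ventricular cardiomyocyte markers were above it, and their mean was 11.24 to 11.32 on AngIV arrays, 11.19 to 11.32 on DM arrays and 11.23 to 11.40 on NC arrays. Atrial tissue was unevenly present. The mean of the 6 atrial markers, 2 of which were above background in every group, was 5.08 to 5.49 on AngIV arrays, 4.77 to 7.79 on DM arrays and 5.22 to 8.13 on NC arrays. The mean of the 5 macrophage markers, 3 of which were above background in every group, was 5.78 to 6.55 on AngIV arrays, 5.74 to 6.91 on DM arrays and 5.68 to 6.06 on NC arrays. Correlations between arrays were 0.961 to 0.986 within groups and 0.962 to 0.984 between groups.

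Epha4, the receptor gene for which the family was examined, was lower in both diabetic groups than in controls. Its log2 signal was 5.90, 5.45, 5.64 and 6.07 on AngIV arrays 1 to 4, 5.66, 5.63, 5.40 and 5.80 on DM arrays 1 to 4, and 6.54, 6.62, 6.81 and 6.62 on NC arrays 1 to 4. Every one of the 8 arrays from diabetic mice lay below every NC array, while AngIV and DM arrays overlapped. Of all genes tested, 2.45% were lower in DM than in NC with no overlap and 5.17% lower in AngIV than in NC, and nothing is read from this for Epha4. In order from low to high the group levels were 5.62 ± 0.17 in DM, 5.76 ± 0.28 in AngIV and 6.65 ± 0.11 in NC (mean ± SD, n = 4), and the neighbours DM and AngIV did not differ beyond their spread.

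The DM arrays carried 2.04-fold less Epha4 signal than the NC arrays. This is the difference for which Epha4 was chosen, so it stands as a description with no p-value. In AngIV against NC, Epha4 fell by 0.88 on the log2 scale, with a standard error (SE) of 0.13, or 1.85-fold (limma adjusted p = 0.00617 over 13653 genes). That comparison shares the 4 NC arrays with the first, so it is not independent of the choice. In AngIV against DM the log2 change was 0.14 ± 0.13 (SE; limma adjusted p = 0.766), and its 95% interval ran from -0.14 to 0.43. The interval does not contain a return to the NC level, and its upper end is a 1.34-fold higher signal in AngIV than in DM.

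Epha4 sat close to background in the diabetic hearts. Its signal was above the negative controls' 95th percentile of the same array on 3 of 4 AngIV arrays, on 3 of 4 DM arrays and on 4 of 4 NC arrays, AngIV replicate 2 and DM replicate 3 being the exceptions. Signals near background understate a ratio, so the folds above are not exact ratios of RNA. In bulk tissue, fewer cells that express a gene and less RNA per cell cannot be told apart.

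**Figure D1:**
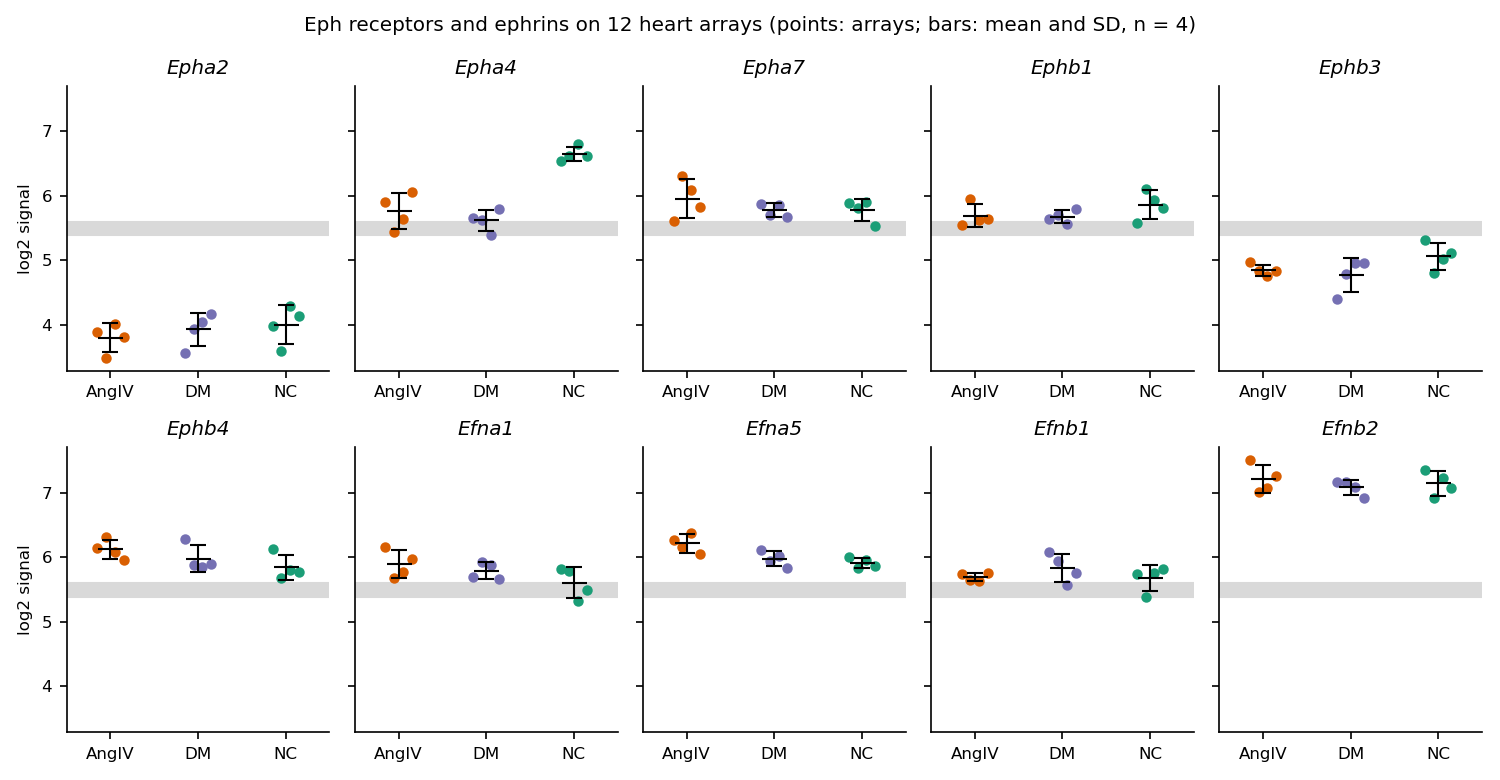
Log2 signal (vertical axis) of the 10 Eph receptor and ephrin genes in AngIV, DM and NC hearts. Coloured points are arrays, black bars the mean and SD of 4 arrays, and the grey band the range over arrays of the negative controls' 95th percentile (5.39 to 5.60). Epha4 is the gene whose 8 AngIV and DM points all lie below its 4 NC points, and Epha2 and Ephb3 lie below the band in all groups.

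Cell type markers were set beside Epha4 because heart tissue holds several cell types. The 3 arrays with the highest macrophage mean in the diabetic groups were DM replicate 1 at 6.91, AngIV replicate 2 at 6.55 and AngIV replicate 3 at 6.41. On DM replicate 4 and AngIV replicate 4 the macrophage mean was 5.74 and 5.78, inside the NC range of 5.68 to 6.06, and Epha4 was 5.80 and 6.07 there, below the lowest NC value of 6.54. Each of these arrays also had the lowest macrophage mean and the highest Epha4 signal of its group. Across the 12 arrays the macrophage mean and Epha4 had a Pearson correlation of -0.65, and of -0.53 after group means were taken off each (12 arrays, a description).

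With the macrophage mean as a covariate, an alternative chosen after seeing the data, the Epha4 log2 change was -0.91 in DM against NC, against -1.03 without it, both as descriptions. In AngIV against NC it was -0.76 (limma adjusted p = 0.0446), against -0.88 without it. That comparison shares the NC arrays on which Epha4 was chosen, so its p-value is not independent of the choice. The macrophage markers did not differ alike. Cd163 was higher by 0.87 in DM against NC and by 1.18 in AngIV against NC, and was not above background in NC. Adgre1, Csf1r, C1qa and Mrc1 were higher by 0.20 to 0.41 in DM against NC and by 0.13 to 0.34 in AngIV against NC. The covariate is thus weighted to Cd163. The part of macrophage content in the Epha4 difference was not tested beyond these values.

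Atrial content moved with Epha4 less. The correlation of the atrial mean with Epha4 was 0.19 over the 12 arrays and 0.24 after group means were taken off. Ventricular cardiomyocyte markers had 0.39 and 0.04. After group means were taken off, Epha4 also correlated with venous endothelial (-0.39), smooth muscle (-0.35) and fibroblast (-0.32) markers. Epicardial (0.48) and neuronal (-0.32) markers did so too, but 0 of these were above background in every group. With the atrial mean as a covariate the log2 change of Epha4 was -1.04 in DM against NC and -0.83 in AngIV against NC (limma adjusted p = 0.0123 for AngIV against NC). P-values for AngIV against NC here and below are not independent of the choice of Epha4, which used the same NC arrays. On the arrays where the atrial light chain gene Myl7 was below background, 4 AngIV, 1 DM and 2 NC arrays, the Epha4 log2 change was -1.23 in DM against NC and -0.86 in AngIV against NC. The value for DM against NC rests on 1 DM array and is a description, and the change in AngIV against NC was no longer called (limma adjusted p = 0.0717).

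**Figure D2:**
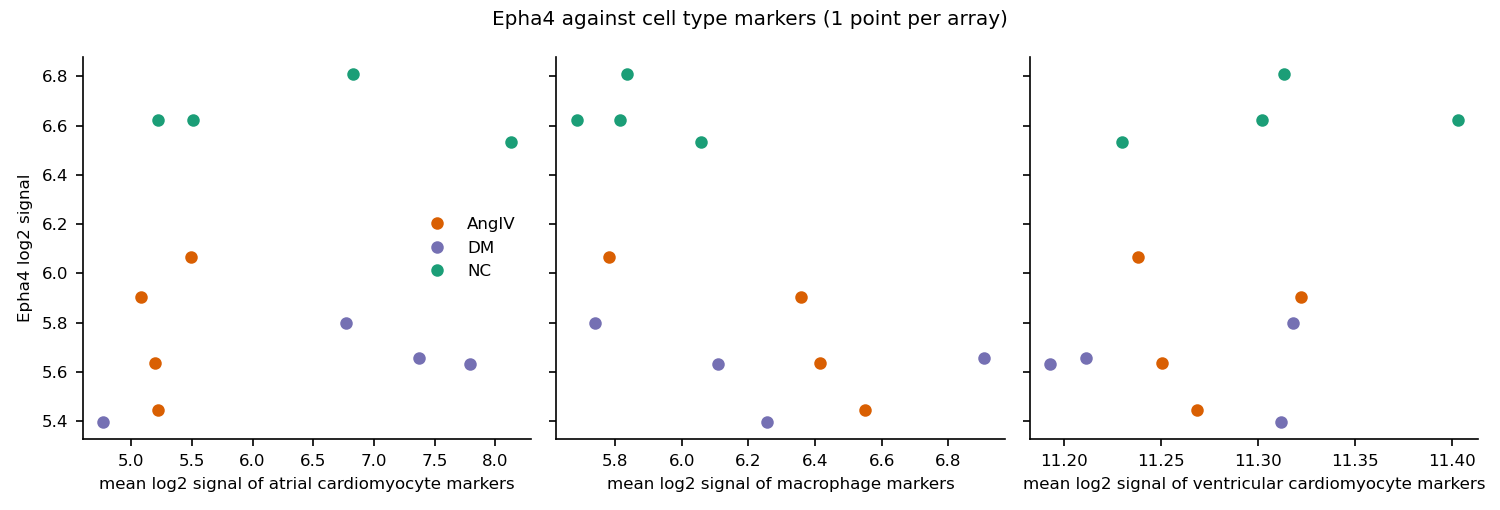
Epha4 log2 signal (vertical axis) against the mean log2 signal of atrial, macrophage and ventricular cardiomyocyte markers (horizontal axes), 1 point per array in AngIV, DM and NC. The 4 NC points lie above all 8 AngIV and DM points, also beside AngIV replicate 4 and DM replicate 4, whose macrophage means lie within the NC range of 5.68 to 6.06. Each of these arrays also has the lowest macrophage mean and the highest Epha4 signal of its group.

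The promoter of Epha4 is shown because it belongs to the gene with the lower signal in diabetic hearts. The sequence is RefSeq's, 250 bases before to 50 bases after the annotated start, GRCm38.p6 chr1:77515039-77515338, minus strand, read 5′ to 3′. Capitals mark motif matches.
Epha4: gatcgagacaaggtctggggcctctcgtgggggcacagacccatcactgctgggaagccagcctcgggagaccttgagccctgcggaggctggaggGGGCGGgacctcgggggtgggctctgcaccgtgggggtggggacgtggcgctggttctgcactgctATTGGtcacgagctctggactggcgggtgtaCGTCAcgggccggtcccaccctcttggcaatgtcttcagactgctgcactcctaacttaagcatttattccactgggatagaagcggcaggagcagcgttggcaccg
Both strands were searched for the GC box GGGCGG, the CCAAT box CCAAT, the cyclic AMP response element core TGACG, the E-box CACGTG bound by clock factors, and the FoxO site GTAAACA, the last because the series title names FoxO1. The window held 1 GC box on the printed strand and 1 CCAAT box and 1 TGACG on the opposite strand. They begin at -154, -88 and -57 relative to the start site, and none of them overlaps another. No CACGTG and no GTAAACA was in these letters. Of 32851 mouse promoters of the same length, 35.7% held the GC box, 37.4% the CCAAT box, 20.8% TGACG, 7.15% the E-box and 3.65% the FoxO site. The matches are a description of the window and the arrays carry no measurement of it.

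In DM against NC, 1 of the 10 genes was called, Epha4, where 0.022% of all genes tested were called, and nothing is read from this since Epha4 was picked on that contrast. A gene is called at a limma adjusted p under 0.05 over all 13653 genes tested. The other 9 had log2 changes from -0.29 to 0.19 and limma adjusted p-values from 0.475 to 0.997. Epha2 and Ephb3 were below background, so their intervals bound no difference in RNA. Among the other 7 the 95% intervals reached from -0.45 (Ephb1) to 0.48 (Efna1) on the log2 signal scale. The median log2 change was -0.03 over the 10 genes and 0.00 over all genes tested. In AngIV against DM, 0 of the 10 were called, where 0% of all genes were called. In AngIV against NC, 1 of the 10 was called, Epha4, where 2.15% of all genes were called. Nothing is read from this either, since the comparison shares the NC arrays on which Epha4 was picked. The other 9 had limma adjusted p-values there from 0.125 to 0.952.

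**Figure D3:**
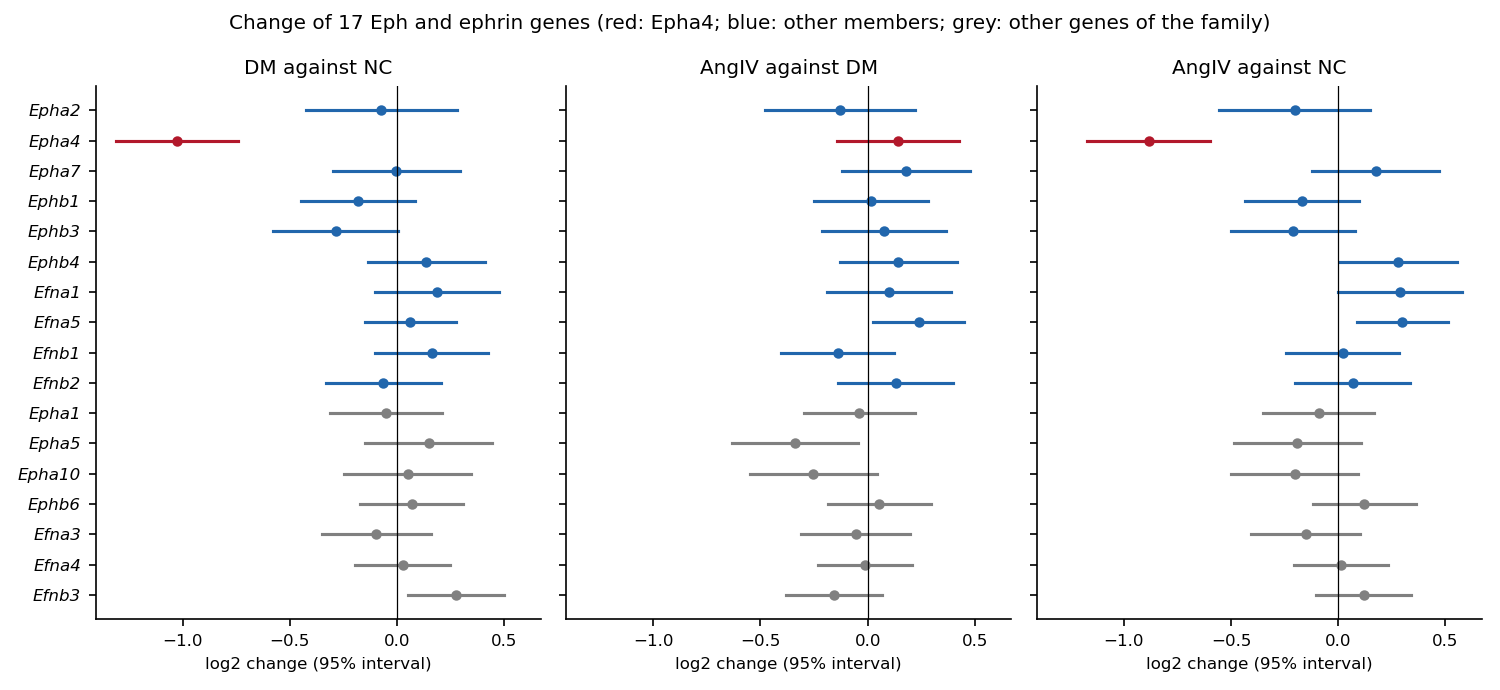
Log2 change (horizontal axis, point) with its 95% interval (line) for the 17 Eph and ephrin genes tested, in 3 panels, one per pair of groups. Epha4 (red) lies at -1.03 in DM against NC, a description, and at -0.88 in AngIV against NC, while the other genes lie between -0.34 and 0.30 in all panels.

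Of the other EphA receptor genes among the 10, Epha7 was above background and Epha2 was not. Epha7, best known for guiding axons and setting tissue boundaries, read 5.61, 6.30, 6.09 and 5.82 on AngIV arrays, 5.87, 5.71, 5.86 and 5.67 on DM arrays, and 5.89, 5.81, 5.90 and 5.52 on NC arrays. The 3 groups overlapped, and the Epha7 log2 change was 0.18 ± 0.14 (SE) in AngIV against DM, 0.00 ± 0.14 in DM against NC and 0.17 ± 0.14 in AngIV against NC. Epha2, an epithelial and endothelial receptor gene and a partner of ephrin-A1, was below background on all 12 arrays. Its level was 3.80 ± 0.22 in AngIV, 3.93 ± 0.26 in DM and 4.00 ± 0.30 in NC (mean ± SD, n = 4), and no ratio is given for it.

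The EphB receptor genes were not called either. Ephb4, the venous endothelial receptor of ephrin-B2, read 6.15, 6.31, 6.08 and 5.96 on AngIV arrays, 6.29, 5.89, 5.85 and 5.90 on DM arrays, and 6.12, 5.67, 5.81 and 5.78 on NC arrays. Most AngIV values lay above most NC values, but NC replicate 1 was within the AngIV range. Between AngIV and NC hearts the Ephb4 log2 change was 0.28 ± 0.13 (SE). Its unadjusted limma p was 0.0456, where 18.6% of all genes had one under 0.05, and its limma adjusted p = 0.256. Ephb4 moved with the macrophage markers from array to array (r = 0.81 after group means were taken off, 12 arrays), and also with fibroblast (0.75), atrial (0.55) and smooth muscle (0.51) markers. Ephb4 had lower correlations with endothelial (0.38) and venous endothelial (0.15) markers. With the macrophage mean as a covariate its log2 change in AngIV against NC was 0.10.

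Ephb1, a receptor gene with roles in axon guidance and vessel assembly, read 5.55 to 5.95 on AngIV arrays, 5.56 to 5.80 on DM arrays and 5.58 to 6.11 on NC arrays. All 3 ranges overlapped, and its log2 change was -0.18 ± 0.12 (SE) in DM against NC and -0.17 ± 0.12 in AngIV against NC. Ephb1 moved against the smooth muscle markers (r = -0.83 after group means were taken off, 12 arrays), and also against endothelial (-0.43) and fibroblast (-0.42) markers. With neuronal markers, 0 of which were above background in every group, it had 0.60. Ephb3, which helps to position cells in the gut epithelium and, with Ephb2, acts in vessel development, was below background on all 12 arrays, at 4.85 ± 0.09 in AngIV, 4.77 ± 0.27 in DM and 5.06 ± 0.21 in NC (mean ± SD, n = 4). Its log2 difference of -0.29 in DM against NC was that of signals near background (limma adjusted p = 0.475).

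Among the ligands, Efna5, which encodes the lipid-anchored ephrin-A5, a ligand of EphA4 and EphA7, was higher on the AngIV arrays. It read 6.27, 6.15, 6.38 and 6.06 on AngIV arrays 1 to 4, 6.11, 5.95, 6.01 and 5.84 on DM arrays 1 to 4, and 6.01, 5.84, 5.95 and 5.86 on NC arrays 1 to 4. The AngIV and NC arrays did not overlap, whereas AngIV and DM arrays did, as did DM and NC arrays. Of all genes tested, 7.59% were higher in AngIV than in NC with no overlap, so such a gene is not rare here. The log2 change of Efna5 was 0.30 ± 0.10 (SE) in AngIV against NC and 0.24 ± 0.10 in AngIV against DM, and neither was called (limma adjusted p = 0.125 and 0.535).

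Efna5 was also the single one of the 10 genes with an unadjusted limma p under 0.05 in AngIV against DM, where 8.78% of all genes had one. Its level moved with the macrophage markers (r = 0.78 after group means were taken off, 12 arrays), and also with venous endothelial (0.68), fibroblast (0.63), endothelial (0.62) and smooth muscle (0.57) markers. With the macrophage mean as a covariate its log2 change was 0.19 in AngIV against NC and 0.23 in AngIV against DM. What the content of these cell types contributes to Efna5 and Ephb4 was not tested beyond these values.

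Efna1, the ephrin-A1 gene, first described in cytokine-treated endothelial cells, read 6.15, 5.67, 5.77 and 5.97 on AngIV arrays, 5.69, 5.93, 5.88 and 5.66 on DM arrays, and 5.82, 5.79, 5.32 and 5.49 on NC arrays. The groups overlapped, with 2 NC arrays below every array of the diabetic mice, and the log2 change was 0.29 ± 0.14 (SE) in AngIV against NC (limma adjusted p = 0.272). Efnb2, the arterial ephrin-B2 gene, read 7.50, 7.01, 7.07 and 7.27 on AngIV arrays, 7.16, 7.17, 7.09 and 6.92 on DM arrays, and 7.36, 6.93, 7.24 and 7.07 on NC arrays. Its groups overlapped throughout, with log2 changes of 0.13 ± 0.13 in AngIV against DM, -0.06 ± 0.13 in DM against NC and 0.07 ± 0.13 in AngIV against NC. After group means were taken off, Efnb2 had correlations of 0.50 with endothelial, 0.30 with venous endothelial and 0.26 with arterial endothelial markers. Efnb1, the X-linked ephrin-B1 gene, whose protein in mouse cardiomyocytes sits at the lateral membrane, read 5.63 to 5.76 on AngIV arrays, 5.57 to 6.08 on DM arrays and 5.38 to 5.82 on NC arrays. Its log2 changes were -0.14 in AngIV against DM, 0.16 in DM against NC and 0.02 in AngIV against NC. Efnb1 moved with the atrial markers (r = 0.59 after group means were taken off, 12 arrays), and also with fibroblast (0.49) and endothelial (0.43) markers. Under alternative settings of the analysis its log2 change ran from -0.23 to 0.12 in AngIV against DM and from -0.03 to 0.25 in DM against NC. The part of atrial content in Efnb1 was not tested beyond these values.

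The 11 further genes of the family gave no call in any comparison. Of these, 9 were below background on all 12 arrays, and 4 of those 9 (Epha3, Epha6, Epha8 and Efna2) were among the dimmest 30% of genes and were not tested. Epha1, an epithelial receptor gene, was above background on 12 of 12 arrays, at 6.07 ± 0.15 in AngIV, 6.10 ± 0.21 in DM and 6.16 ± 0.15 in NC (mean ± SD, n = 4). Efnb3, the ephrin-B3 gene and a ligand of EphA4, was above background on 12 of 12 arrays as well. It read 7.02, 7.18, 7.11 and 6.89 on AngIV arrays 1 to 4, 7.37, 6.99, 7.16 and 7.31 on DM arrays 1 to 4, and 6.90, 6.97, 7.00 and 6.87 on NC arrays 1 to 4. Of the DM arrays 3 were above all NC arrays, and the log2 change of Efnb3 was 0.27 ± 0.10 (SE) in DM against NC. Its unadjusted limma p was 0.0186, where 10.7% of all genes had one under 0.05, and its limma adjusted p = 0.353. Against NC the AngIV change was 0.12 ± 0.10. Over the 7 of these genes that were tested, log2 changes ranged from -0.10 to 0.27 in DM against NC, from -0.34 to 0.06 in AngIV against DM and from -0.20 to 0.12 in AngIV against NC.

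Receptors and ligands were also compared array by array, as a description over 12 arrays that share their normalization. After group means were taken off, Ephb4 and its ligand gene Efnb2 had a correlation of 0.31. Epha4 had correlations of -0.36 with Efna5, 0.08 with Efna1, 0.34 with Efnb2 and -0.24 with Efnb3. With the other receptor genes it ranged from -0.64 for Epha7 to 0.52 for Epha5, a gene below background.

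Genes that act with Eph receptors inside the cell were taken from a list of 65 exchange factors, adaptors, kinases, phosphatases, GTPases and proteases, of which 56 were tested. In DM against NC 0 were called, 3 were higher and 0 lower by an unadjusted p under 0.05 (10.7% of all genes had such a p), and the median log2 change was 0.01, against 0.00 for all genes. Between AngIV and DM 0 were called, 2 were higher and 3 lower by that p, where 8.78% of all genes had such a p, and the median was 0.01, as for all genes. Between AngIV and NC 0 were called, 8 were higher and 4 lower by that p, out of 56, where 18.6% of all genes had such a p.

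The 3 listed genes with the smallest p in DM against NC were Ptpro, Stat3 and Ptpn11. Ptpn11, which encodes the phosphatase SHP2 downstream of many receptor tyrosine kinases, read 7.79, 7.86, 7.90 and 8.01 on AngIV arrays, 7.87, 7.99, 7.53 and 7.55 on DM arrays, and 7.48, 7.25, 7.51 and 7.46 on NC arrays. All 8 arrays of diabetic mice were above all NC arrays, where 2.84% of all genes were higher in DM than in NC with no overlap and 7.59% were higher in AngIV than in NC. Ptpn11 was named for its small p in DM against NC, so nothing is read from this for it. The Ptpn11 log2 change was 0.31 ± 0.12 (SE) in DM against NC and 0.46 ± 0.12 in AngIV against NC, and neither was called (limma adjusted p = 0.354 and 0.0519). Stat3, a transcription factor gene of cytokine signalling, had 0.39 ± 0.13 in DM against NC (limma adjusted p = 0.28). Ptpro, which encodes a receptor-type phosphatase that acts on Eph receptors, was below background in all groups, with a log2 difference of 0.51 in DM against NC (limma adjusted p = 0.218).

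In AngIV against DM the smallest p-values in the list belonged to Grip2, Git2 and Pick1. Grip2, a scaffold that binds ephrin-B tails, was below background on all 12 arrays, with a log2 difference of -0.43 (limma adjusted p = 0.346). Git2, a regulator of ARF GTPases, and Pick1, a PDZ-domain scaffold, each had a log2 change of 0.27 ± 0.10 (SE), and neither was called (limma adjusted p = 0.50 for Git2 and 0.511 for Pick1).

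The genes whose pattern was most like that of Epha4 were found by Pearson correlation over the 12 arrays among all genes tested, as a description with no p-value. The 5 highest were Cd320, the receptor gene for transcobalamin-bound vitamin B12, at 0.92, Abat, the GABA transaminase gene, at 0.91, Gsta4, a glutathione transferase gene, at 0.90, Tmem160 at 0.90 and Yipf7 at 0.88. Abat was not above background in DM, where its mean was 5.48 and the mean background 5.53. The 5 lowest were Fabp4, a fatty acid binding protein gene of fat cells and capillary endothelium, at -0.91, the transcription factor gene Nfic at -0.91, Lrp10 at -0.90, the cochaperone gene St13 at -0.90 and Ankrd12 at -0.89. In all 10 the NC arrays overlapped with neither the AngIV nor the DM arrays, as for Epha4, so these correlations hold the group difference. Of all genes tested, 2.84% were higher and 2.45% lower in DM than in NC with no overlap. In AngIV against NC these shares were 7.59% and 5.17%. In 0 of the 10 were AngIV and DM arrays apart, where 488 of all 13653 genes were higher and 299 lower in AngIV with no overlap. The 10 were chosen by their correlation with Epha4, so nothing is read from these counts. After group means were taken off, the correlations of the 5 highest were 0.36 to 0.56 and those of the 5 lowest -0.82 to -0.27.

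**Figure D4:**
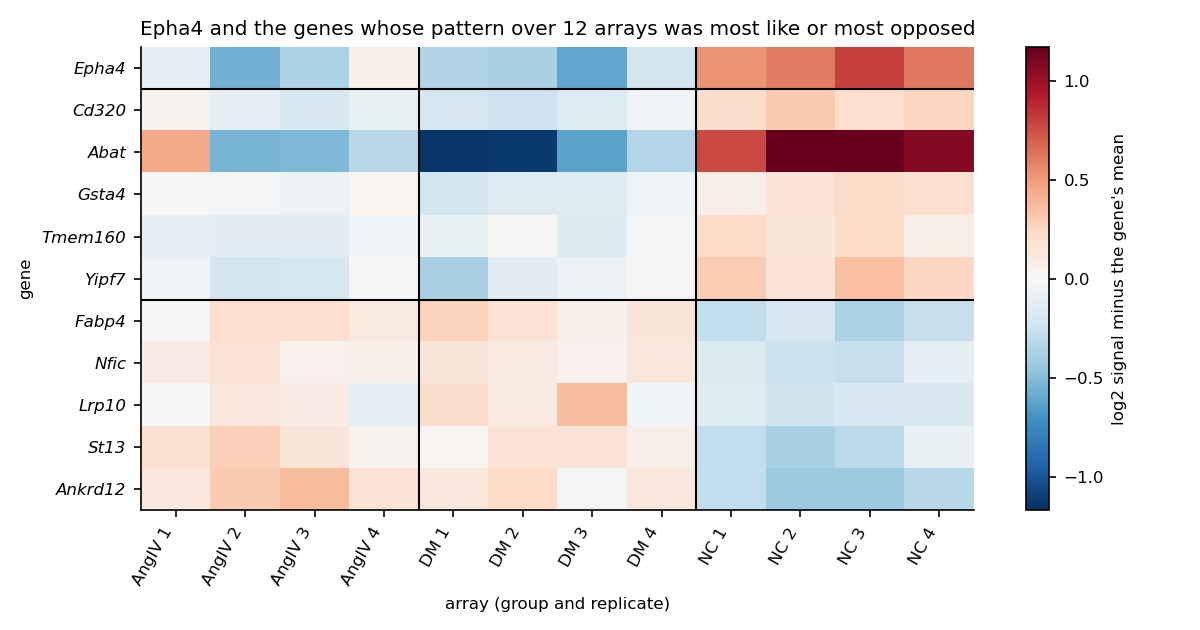
Log2 signal minus each gene's mean (colour scale) for Epha4 and the 5 genes of highest and 5 of lowest correlation with it (rows) on the 12 arrays (columns, by group). Epha4 and the 5 genes under it are higher on NC arrays, and the lower 5 are lower there, and no row sets the AngIV apart from the DM columns.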

How the data were processed

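The values deposited by the authors are RMA output, per the submitters' processing notes, and their range shows a log2 scale. RMA usually corrects background, equalizes the distributions of the arrays and summarizes probes, so a change in total mRNA would not show; its settings and version are not stated in the labels. Of 29129 probe sets, 6923 controls were left out; 19572 of 22206 transcript probe sets had 1 gene symbol, naming 19505 genes. Symbols were checked by Entrez ID against a RefSeq GRCm38.p6 gene table, which changed 0. The dimmest 30% of genes (mean under 3.40) were left out, leaving 13653.

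The linear model of limma 3.58.1 (R 4.3.3; lmFit, then eBayes) had 3 group means fitted to the 12 arrays, and p-values were adjusted by Benjamini-Hochberg over the 13653 genes. The fit was tested on simulated data. The number of arrays limits the precision (median SE 0.13). The genes, lists and tests were chosen with earlier results of these data known. Named genes were the family, the 5 genes most like and most unlike Epha4, and, of the list of genes acting with Eph receptors, any called and the 3 of smallest p per comparison. One gene that this rule names is not reported here. Alternatives covered filters, priors, weights, centring, probe sets, marker covariates, the replicate block and left-out arrays.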

Additional observations from a re-analysis of the deposited data

Results flagged for a closer look

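Of 51 sets of 4 arrays looked at (17 genes in 3 groups), 1 held an array far from the others by Dixon's test, where chance gives about 1 in 20. Ephb4 on DM replicate 1 read 6.29, with the next DM value at 5.90 and the lowest at 5.85. The same array had the highest macrophage marker mean of the 12, at 6.91; the part of macrophage content was not tested.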

How the results depend on the processing

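Epha4 was lower in both diabetic groups than in NC under all 23 planned and 2 added alternatives, with log2 changes from -1.23 to -0.91 in DM against NC and from -0.99 to -0.76 in AngIV against NC. Filters, priors, weights and left-out arrays could not turn this direction, since every NC array lay above every array of the diabetic mice. Counts that include Epha4 in DM against NC are descriptions, since it was chosen on that difference. The NC arrays of that choice also enter AngIV against NC, so the counts and p-values of Epha4 there are not independent of it. For 2 alternatives, chosen after seeing the data, counts of calls fell. With arrays with Myl7 above background left out, the count of Eph and ephrin genes called was 0 in DM against NC and 0 in AngIV against NC, and that of all genes 0 and 102; with the macrophage mean as a covariate, it was 0 in DM against NC for the family, and 45 of all genes in AngIV against NC. No other gene of the family was called under any alternative run. Of 1245 values under alternatives, 48 had the other sign, in 19 of the 51 gene comparisons, none of them called. The count of all genes called was less stable. In DM against NC, 3 in the main setting, it was 20 with the dimmest 50% left out, 24 above the negative controls, 29 with a trend in the prior, 5 with the atrial covariate, 5 with only both groups compared, and 3 to 30 with 1 array left out (30 without DM replicate 4, 10 without NC replicate 1, 9 without DM replicate 3, 5 without NC replicate 2). In AngIV against NC, 293 in the main setting, the same 3 filter and prior settings gave 492, 594 and 576, the fit of 2 groups 466, and leaving out 1 array 104 to 469 (lower by over 1.5 times without AngIV replicate 2, 3 or 4 or NC replicate 1, 2 or 4, and higher by as much without DM replicate 1). In AngIV against DM, limma called 0 genes, 1199 had an unadjusted p under 0.05, and leaving out 1 array gave 0 to 5 (5 without AngIV replicate 2, 1 without DM replicate 2). Replicate numbers are shared by the groups, but same-numbered arrays did not deviate together (correlations from -0.12 to 0.21), so the numbers were not taken as pairs; with the replicate block, Epha4 had a limma adjusted p = 0.0164 in AngIV against NC, and 3 of all genes were called in DM against NC, 218 in AngIV against NC and 0 in AngIV against DM. The cause of these shifts was not tested.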
